A study of Mus musculus with 5 samples.

Results

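The tissue recovered 2 weeks after transplantation of a kidney bud was set against the kidney of 8-week-old mice, with 1 array for each. The comparison covers every named gene whose signal was well above background, as the scanner software flags it, on either array. This left 18327 of 24563 named genes, of which 15249 were above background on both arrays, 2548 in the transplant only and 530 in the 8-week kidney only. All tissue came from the C57BL/6 strain, and the labels name no other allele and no drug. The 2-week transplant is described as the tissue present after a kidney bud had been grafted, and the 8-week kidney as adult kidney. The bud's own cells, the site of the graft, the host's remaining kidney tissue and the number of animals behind each RNA were left unstated in the labels. A 4-week transplant, a kidney on the day of birth (P0) and a kidney of embryonic day E13.5 were measured with the same design, and their levels are given beside the pair where they help to place it. A level is log2 of the processed intensity over the array's own 75th percentile, so a level of 0 is that percentile and a difference of 1 is a 2-fold difference. Each probe has its own scale, so levels are compared between arrays and not between genes.

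A kidney bud holds mesenchymal progenitors, which form the nephron from the glomerulus to the distal tubule, and a branching ureteric epithelium, which forms the collecting duct. Maturation brings a glomerular filter built by podocytes and a proximal tubule dense in transporters, mitochondria and enzymes that reclaim most of the filtrate. A loop and a distal tubule that set the salt content of the urine mature with them. The progenitor programme, cell division and the fetal growth genes are switched down as the kidney matures. A graft also draws vessels, immune cells and connective tissue from its host.

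No group had a replicate, so the differences have no test and describe 2 arrays. Replicate spots of a probe had a median SD of 0.058 on the transplant array and 0.0748 on the 8-week array, which covers spot error alone. The transplant lay on slide 1 and the 8-week kidney on slide 2, so slide and group cannot be told apart. Within slide 2 the 4-week transplant can be set against the 8-week kidney, a comparison that shares its 8-week array with this one. In it 2150 genes (11.7%) lay at least 4-fold above and 1428 (7.8%) at least 4-fold below the 8-week kidney. The share of spots well above background was 69.1% for the transplant and 60.9% for the 8-week kidney, and the 75th percentile lay at intensities of 1713.4 and 1170.2 in the same order. Xist, which silences an X chromosome in female cells, had a level of -1.60 in the transplant and was not well above background in the 8-week kidney. The Y-linked Ddx3y had levels of -1.40 and 0.22 and the Y-linked Eif2s3y levels of -0.76 and 1.81 in the transplant and the 8-week kidney. Xist and both Y-linked genes were thus above background in the transplant, and the labels state no sex. Of 9 kidney genes looked at for the label (Umod, Slc12a1, Aqp2, Nphs1, Slc34a1, Lrp2, Kap, Slc12a3 and Atp6v1b1), all were well above background on both arrays, so transcripts of the glomerulus, tubule and collecting duct were measured in the transplant.

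In the transplant 2165 genes (11.8%) were at least 4-fold higher and 1589 genes (8.67%) at least 4-fold lower than in the 8-week kidney, so 57.7% of these differences were higher. At 2-fold the counts were 3976 (21.7%) higher and 4128 (22.5%) lower, and these shares are the background for every list below. The extremes were not balanced. At least 64-fold higher were 114 genes, and 181 were at least 64-fold lower. Of the genes at least 4-fold apart, 760 of the higher and 238 of the lower ones rest on a bound, because the gene was dim on the other array. The split depends on scaling. With the median as the scaling point it became 1716 higher and 2263 lower (43.1% higher), and with no scaling 3033 and 1102 (73.3%). In the authors' gene table, which carries no percentile shift, it was 3622 and 1213 (74.9%). There dim genes entered at their own values and not as bounds, and rows of a gene were averaged. The authors' table therefore differs by more than scaling. These settings moved the median difference of all genes to -0.37, 0.43 and 0.49, against -0.01 in the scaling used here. Genes above background on both arrays can move further than these medians over all genes. Without scaling, the median of the 24 proximal tubule transport genes described below was -5.94, against -6.49 in the scaling used here. A difference near or below such shifts therefore has no settled direction, and such genes are given by their values alone.

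**Figure D1:**
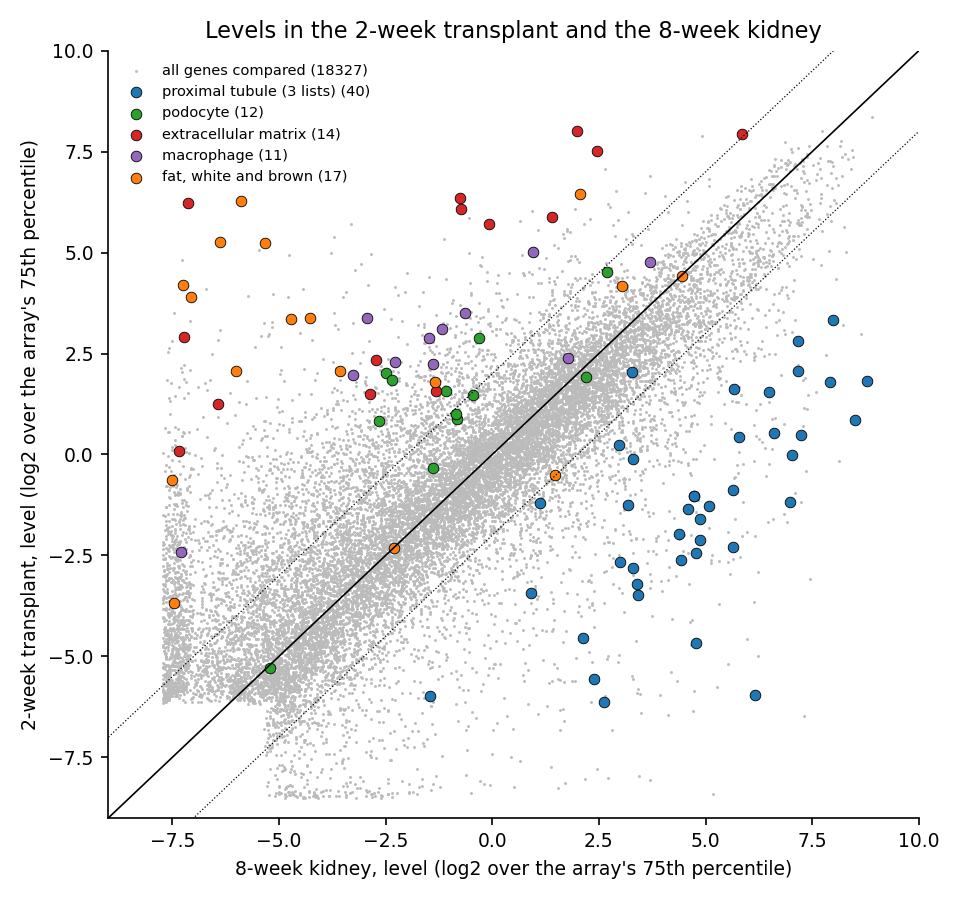
Level of each compared gene in the 2-week transplant (vertical) and the 8-week kidney (horizontal), both as log2 over the array's 75th percentile, with dim genes at their measured value. The solid line marks equal levels and the dotted lines a 4-fold difference. All 40 proximal tubule genes lie below the solid line, and all 14 matrix genes above it.

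The 15 largest excesses in the transplant are given for named genes above background on both arrays. Ccl8, a chemokine for monocytes, had a level of 4.94 in the transplant and -4.77 in the 8-week kidney, 839.5-fold higher, and was not above background at E13.5 or P0. Timp1, an inhibitor of matrix proteases, had 3.98 and -5.15 in the same order (558-fold). Mfap4 and Mfap2, glycoproteins of elastic microfibrils, were 553-fold and 224-fold higher. Penk, the enkephalin precursor, was 524-fold higher and had a level of 6.11 at P0 beside 5.72 in the transplant. The others of the 15 largest were Apod (440.3-fold), the osteocalcin relative Bglap3 (413-fold), S100b (391.8-fold), Hp (haptoglobin, 369-fold), Dlk1 (352-fold), Rbp4 (retinol transport, 319-fold), Cldn11 (284-fold), the lipid droplet gene Cidec (269-fold), Igfbp6 (222-fold) and Serpinf1 (221-fold). All but Ccl8 and Cidec were also above background in the E13.5 and P0 kidneys.

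The largest deficits were in genes with levels of 3.31 to 7.44 in the 8-week kidney. Slc22a7, an organic anion transporter, had a level of -5.96 in the transplant and 6.15 in the 8-week kidney, 4424-fold lower. The glycosyltransferases Ugt3a2 and Ugt3a1 were 2388-fold and 1662-fold lower, the organic anion carrier Slco1a6 2098-fold and the urate and phosphate carrier Slc17a3 1482-fold. The secreted nuclease Dnase1 had levels of -3.09 and 7.44 (1480.5-fold lower). The rest of the 15 were enzymes (Hsd3b3, Acot12, Bhmt2, Rdh16f2, Aass and Cyp4a32, from 469-fold to 979.5-fold), the urate transporter Slc22a12 (706-fold) and the plasma protein genes Serpinf2 (889-fold) and Proc (524-fold). Of these 15 genes only Acot12 was not above background at P0. Slco1a6, the Hsd3b genes, the Ugt2b genes and Cyp4a32 have close relatives in the genome, and their probes may not tell them apart.

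The genes at least 4-fold apart were also placed on the other arrays, as a description. The median level of the 2165 higher genes was -0.38 in the 2-week transplant, -0.76 in the 4-week transplant, -1.62 at E13.5, -1.51 at P0 and -4.12 in the 8-week kidney. For the 1589 lower genes it was -2.05 in the 2-week transplant, -1.89 in the 4-week transplant, -3.37 at E13.5, -1.03 at P0 and 1.86 in the 8-week kidney. Of the higher genes 64.9% were above background in the 8-week kidney, and of the lower genes 85% in the transplant, so most of these differences are between measured levels.

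**Figure D2:**
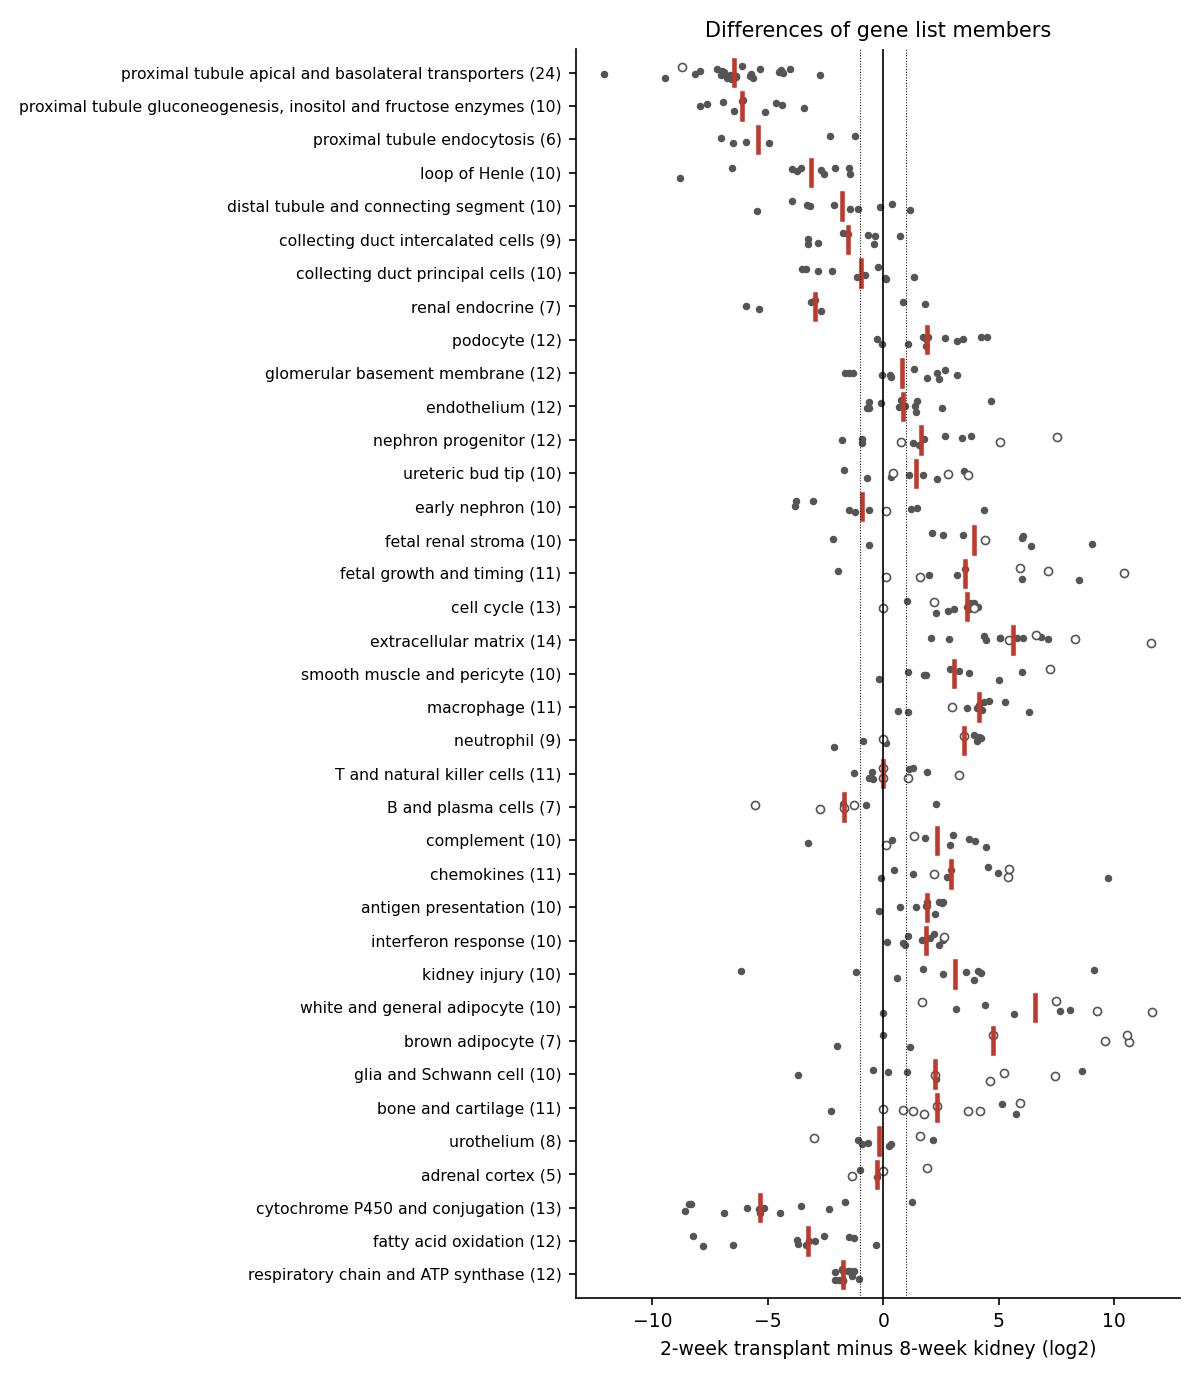
Difference between the 2-week transplant and the 8-week kidney (log2, horizontal) for the members of 37 gene lists, with the number of compared members in brackets. Filled points were above background on both arrays, open points are bounds, red bars are list medians and dotted lines mark 2-fold. The proximal tubule lists have medians of -6.49 to -5.45 and the white adipocyte list one of 6.56.

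Among the nephron segments listed, the proximal tubule had the largest deficit. All 24 genes of its transport list were at least 4-fold lower in the transplant than in the 8-week kidney, with a median difference of -6.49, against -0.01 over all genes. The phosphate transporter Slc34a1 had a level of 0.48 in the transplant and 7.24 in the 8-week kidney (109-fold lower), beside -7.54 at E13.5, 3.39 at P0 and -2.22 in the 4-week transplant. Slc22a6, which takes up organic anions from blood, had -1.18 and 6.98 in the transplant and the 8-week kidney (287-fold), beside 3.29 at P0. Slc6a20b, a carrier of imino acids, was not above background in the transplant and at least 424-fold lower. Slc5a2, the glucose transporter of the early segment, was 40.5-fold lower, and the cystine transporter subunits Slc3a1 and Slc7a9 were 127-fold and 53.9-fold lower. The smallest difference of the list was in Slc47a1, which secretes organic cations, at 6.65-fold. The transplant had 23 of the 24 genes above background. Their summed linear level was 11.7 in the transplant, 4.6 in the 4-week transplant, 53.8 at P0, 1.79 at E13.5 and 851 in the 8-week kidney (75th percentile = 1). In bulk tissue fewer proximal tubule cells and less RNA per cell cannot be told apart.

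The uptake and metabolic functions of the segment differed the same way. Of the endocytosis list, all 6 genes were at least 2-fold lower (median -5.45). The receptor genes Cubn and Lrp2 were 130.3-fold and 91.3-fold lower, and the adaptor Dab2, which other cell types also express, 2.35-fold. The 3 probes of Lrp2 gave differences from -6.51 to -1.97. All 10 genes of the gluconeogenesis, inositol and fructose list were lower (median -6.11). G6pc, which releases free glucose, had levels of -2.28 in the transplant and 5.64 in the 8-week kidney (242-fold), and the aminoacylase gene Acy3 0.86 and 8.51 (201-fold). Pck1, which fat also expresses, was 20.6-fold lower, and its level was higher in the 4-week transplant (4.73) than in the 2-week transplant (2.80). Gatm, of creatine synthesis, differed least, at 10.74-fold.

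Detoxifying enzymes and nephron regulators were mostly lower as well. Of 13 cytochrome P450 and conjugation genes, 12 were at least 2-fold lower (median -5.36), among them the acetyltransferase gene Nat8 (384-fold), Cyp4b1 (344-fold) and Ugt2b38 (319.6-fold). Gsta4, a glutathione transferase, was 2.33-fold higher and the exception of its list. Of 12 nephron transcription factor genes, 11 were at least 2-fold lower (median -2.28). Hnf4a, which drives proximal tubule maturation, had levels of 0.30 in the transplant and 6.33 in the 8-week kidney (65.5-fold lower), beside 3.71 at P0. The metabolic regulator Ppara had 0.29 and 3.77 (11.2-fold), and Pax2 differed by -0.56. The probes of Maf, a member of this list at 2.89-fold lower, differed in sign.

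Promoters of lower genes were searched for the binding word of HNF4, the product of Hnf4a, to show what sequence those genes carry. The windows are RefSeq's (GRCm38.p6), from 250 bases before to 50 bases after each gene's start, and 13642 of the 18327 genes had one. The word was CAAAGTCCA, a shortened form, on both strands. It was found for 1.49% of 1210 genes at least 4-fold lower and 0.454% of 1542 genes at least 4-fold higher. Of all 13642 compared genes with a window, 0.55% had it. A gene counts if any of its windows held the word. Counted by window, the share was 0.475% of 32851. A match is a description of the letters and not a binding site. Of the other lists searched, 1 of 12 cytochrome P450 and conjugation genes with a window held the word. None did among 5 endocytosis, 9 gluconeogenesis, 8 nephron transcription factor and 8 loop of Henle genes. Of the 18 transport genes with a window, 1 held the word. It was Slc3a1, the cystine transporter subunit described above, and the 250 bases before its start are printed with the match in capitals. They lie at chr17:85028097-85028346 on the plus strand, and the word begins 39 bases before the start.
Slc3a1: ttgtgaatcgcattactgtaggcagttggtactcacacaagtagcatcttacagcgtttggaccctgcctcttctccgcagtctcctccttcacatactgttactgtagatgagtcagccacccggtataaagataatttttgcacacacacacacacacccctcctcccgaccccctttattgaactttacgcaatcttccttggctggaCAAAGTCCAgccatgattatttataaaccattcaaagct

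Beyond the proximal tubule the deficit was smaller along the nephron. All 10 loop of Henle genes were at least 2-fold lower (median -3.12). Egf had levels of -4.16 in the transplant and 4.63 in the 8-week kidney (445-fold lower), and its levels were -5.04 at P0 and -4.08 in the 4-week transplant, so only the 8-week kidney was high. Umod, the urinary glycoprotein uromodulin, had 0.71 and 7.28 (94.9-fold), beside 2.97 at P0. The Na-K-Cl transporter Slc12a1 was 13.3-fold lower, and the prostaglandin receptor Ptger3 and the BMP antagonist Sostdc1 were 2.76-fold and 2.71-fold lower. Slc14a2, a urea transporter, was 11.7-fold lower by the probe used, but its probes differed in sign.

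The distal list had 7 of 10 genes at least 2-fold lower and 1 higher (median -1.80). Parvalbumin (Pvalb) was 45.0-fold, the calcium buffer Calb1 15.6-fold and the kallikrein Klk1 9.89-fold lower. Klk1 had a level of 3.52 in the transplant and 6.82 in the 8-week kidney, and -0.53 at P0. The plasma membrane calcium pump Atp2b1, which many tissues express, was 2.24-fold higher, and Slc8a1 and Trpm6 differed by -0.16 and 0.37. The other probe of Slc8a1 gave 1.38.

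Among the tubule segments listed, collecting duct genes had the medians closest to 0. Of 10 principal cell genes 5 were at least 2-fold lower and 1 higher (median -0.97). The vasopressin-regulated water channel Aqp2 had 0.74 in the transplant, against 2.96 in the 8-week kidney (4.67-fold lower), and Avpr2, the vasopressin receptor, was 11.4-fold and the sodium channel subunit Scnn1a 10.1-fold lower. Fxyd4, a regulator of the sodium pump, had 3.69 and 3.60, and the channel subunit Scnn1b -0.32 and -0.41. The epithelial factor Elf5 was 2.495-fold higher. Of 9 intercalated cell genes, which pump acid and base, 5 were lower and 0 higher at 2-fold (median -1.55). Atp6v0a4, a proton pump subunit, was 9.65-fold, carbonic anhydrase Car2 9.49-fold and the chloride and bicarbonate exchanger Slc26a4 7.04-fold lower. The pump subunits Atp6v1b1 and Atp6v1g3 differed by -0.41 and -0.37, and Foxi1, their transcription factor, by -0.65.

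**Figure D3:**
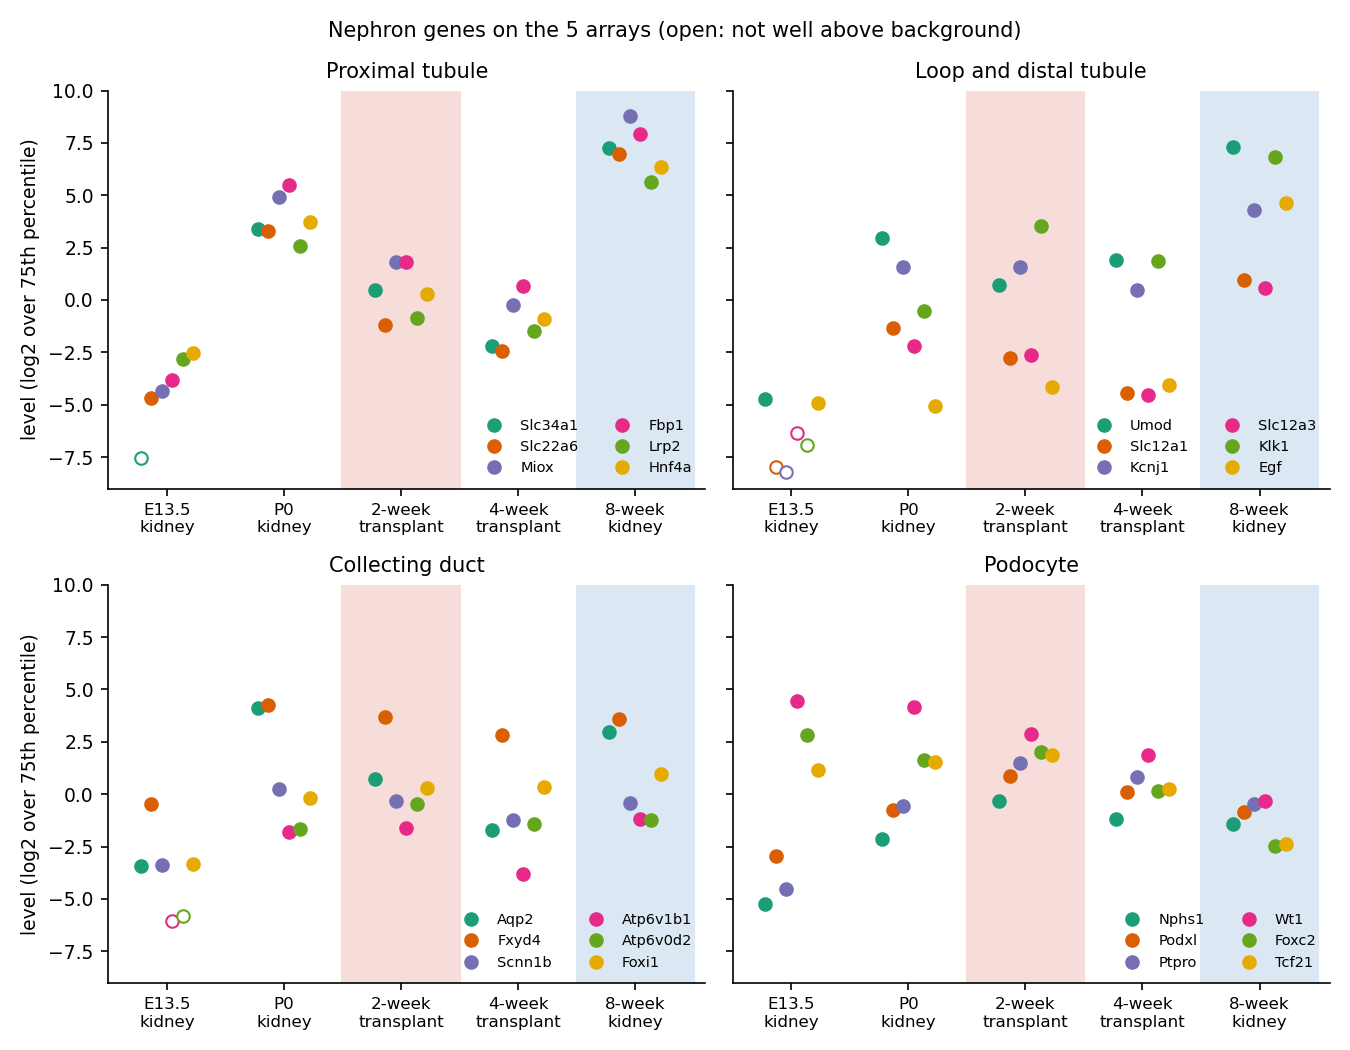
Level of 24 nephron genes (log2 over the 75th percentile, vertical) on the 5 arrays, 6 genes for each of 4 cell groups, with open points not well above background. Red shading marks the 2-week transplant and blue shading the 8-week kidney. Proximal tubule genes lie lower in the transplant (Slc34a1 0.48, against 7.24), of the 6 collecting duct genes drawn, Fxyd4 at a similar level (3.69, against 3.60) and Aqp2 lower (0.74, against 2.96) and podocyte genes higher in the transplant (Ptpro 1.48, against -0.45).

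Water channel, claudin and hormone genes differed in both directions. Of 10 aquaporin and claudin genes 6 were at least 2-fold lower and 3 higher (median -1.38). The proximal genes Cldn2 and Aqp11 were 33.6-fold and 20.3-fold lower, and Cldn7, Cldn4 and Cldn3, tight junction genes of the collecting duct among other epithelia, 4.01-fold, 3.80-fold and 3.12-fold higher. Of 7 renal endocrine genes compared, 5 were lower and 1 higher (median -2.98). Klotho (Kl), a co-receptor for the phosphate hormone FGF23, was 61.1-fold and the vitamin D-degrading Cyp24a1 42.4-fold lower. Renin (Ren1) had 0.11 in the transplant and -0.75 in the 8-week kidney, a difference of 0.86. Akr1b7, which renin cells and steroidogenic cells express, was 3.49-fold higher. Epo was not above background on either array.

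The podocyte list had a median in the opposite direction from those of the tubule segments listed. Of 12 podocyte genes 10 were higher by 2-fold or more in the transplant and 0 lower, with a median of 1.89 (1.22 for the 4-week transplant against the same 8-week array). Nephrin (Nphs1), of the slit diaphragm, had -0.33 and -1.40 in the transplant and the 8-week kidney (2.09-fold). At P0 it had -2.16 and at E13.5 -5.23, so the transplant was the highest of the 5 arrays. Ptpro, a phosphatase of podocyte foot processes, had 1.48 and -0.45 (3.80-fold), beside -0.55 at P0. The largest differences were in the transcription factors Foxc2 (22.9-fold), Tcf21 (18.5-fold) and Wt1 (9.07-fold). Progenitors and stroma also express these, and their levels at E13.5 were 2.85, 1.17 and 4.45. Cd2ap and Magi2 differed by -0.28 and -0.08. Synpo, an actin regulator, was 3.62-fold higher by the probe used, but its probes differed in sign and its mean over probes was -0.05.

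The basement membrane list was split by chain. Of 12 genes 6 were higher by 2-fold or more and 3 lower (median 0.82). Among type IV collagens, Col4a1 and Col4a2, which form the early network, were 4.98-fold and 3.76-fold higher. Col4a3 and Col4a4, which join Col4a5 in the mature filter, were 2.76-fold and 3.15-fold lower, and Col4a5 was 2.52-fold higher. Col4a3 had a level of -1.78 in the transplant and -0.31 in the 8-week kidney, beside -3.79 at P0 and a value not above background at E13.5. Among laminins, Lamb2 of the mature filter was 5.32-fold and Lamc1 6.27-fold higher, Lama1 2.49-fold lower, and Lama5 and Lamb1 differed by -0.07 and 0.32. Nid1, which links laminin to collagen, was 9.03-fold higher. Collagen IV and laminin are also made around vessels and tubules, so the list is not a measure of glomeruli alone.

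Endothelial genes differed by smaller amounts. Of 12 genes 5 were higher by 2-fold or more and 0 lower (median 0.85). Von Willebrand factor (Vwf), of larger vessels, was 25.6-fold higher by the probe used, a difference of 4.68, beside 1.26 by its other probe. The junction gene Cdh5 was 5.72-fold higher, while Plvap differed by -0.12, Flt1 by -0.60 and the growth factor Vegfa by -0.61. The probes of Plvap and Flt1 differed in sign, with 0.10 and 0.18 by the other probe.

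Genes of energy metabolism were lower as groups. Of 12 fatty acid oxidation genes 11 were at least 2-fold lower (median -3.29). Cyp4a10 was 299.7-fold, Cyp4a14 228-fold and Ehhadh, of the peroxisomal pathway, 92.1-fold lower, while the mitochondrial Hadha differed by -0.34. All 12 genes of the respiratory chain and ATP synthase list were lower, by smaller and more even amounts (median -1.73), from Cox6c (2.09-fold) to Cycs and Ndufs1 (4.29-fold and 4.30-fold). In the 4-week transplant, on the slide of the 8-week kidney, this list had a median of -0.82 and the fatty acid oxidation list one of -2.69.

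Genes known to differ between male and female mouse kidney were mostly lower in the transplant. All 10 male-biased genes were at least 2-fold lower (median -5.68). The androgen-regulated Kap had levels of 2.98 and 8.65 in the transplant and the 8-week kidney (51.2-fold), and Slco1a1 was at least 508-fold lower. Of 8 genes listed as female-biased, a bias that is less certain for some of them, 5 were lower and 3 higher (median -3.22). Slc22a7 and Cyp4a14 were lower, and Abcc3 (4.54-fold), Prlr (4.09-fold) and Gsta4 higher. Cyp2a4, whose close copy Cyp2a5 may share its probes, was at least 11464-fold lower. Most members of these lists are proximal tubule genes, and the part of sex in their differences was not tested.

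Developmental genes differed in both directions. Of 12 nephron progenitor genes 8 were higher by 2-fold or more and 1 lower (median 1.65). Their summed level ran the other way, at 38.7 in the transplant and 90 in the 8-week kidney, where Eya1 had 6.14 and Crym 4.19. Six2, which keeps progenitors from differentiating, had a level of 2.14 in the transplant and was not above background in the 8-week kidney, at least 184-fold higher, beside 4.68 at E13.5 and 3.45 at P0. The 2 probes of Six2 gave differences of 2.96 and 7.52. Osr1 was 14.0-fold and Tmem100 10.71-fold higher. Cited1, restricted to the earliest progenitors, had -1.73 and -4.43 (6.46-fold), far from its 4.48 at E13.5 and 4.49 at P0. Gdnf, the signal of the progenitors to the ureteric bud, had -4.63 in the transplant, was dim in the 8-week kidney and was at least 1.68-fold higher, beside 2.69 at E13.5. Eya1 was 3.495-fold lower. The members of this list therefore did not share 1 position between the embryonic and the adult kidney.

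Ureteric bud tip genes were higher in 6 of 10 cases and lower in 1 (median 1.41). Sox9 (at least 12.8-fold) and the receptor gene Ret (at least 6.995-fold) were higher, and the GDNF co-receptor Gfra1 3.28-fold lower. Among 10 genes of early nephrons, 3 were higher and 5 lower (median -0.91). Wnt4, which triggers epithelium formation, had 0.96 and -3.37 (20.2-fold higher), and Lhx1, of the renal vesicle, -5.62 and -1.84 (13.7-fold lower). Irx1 and Irx2, which stay on in the tubule, were 14.0-fold and 8.26-fold lower.

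The stroma of the fetal kidney supports the growing nephrons. Of its 10 genes 8 were higher by 2-fold or more and 1 lower (median 3.93). Besides Penk, the matrix gene Smoc2 was 84.3-fold, Alx1 66.2-fold and Foxd1, which defines the stromal lineage, 65.1-fold higher. Foxd1 had 1.08 in the transplant and -4.94 in the 8-week kidney, beside 2.69 at E13.5 and -0.42 at P0. The guidance gene Ntn1 was 4.48-fold lower.

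Most fetal growth genes compared were higher in the transplant than in the 8-week kidney. Of 11 compared, 9 were higher by 2-fold or more and 1 lower (median 3.52). The imprinted H19 had 5.06 in the transplant and was not above background in the 8-week kidney, at least 1393-fold higher, beside 7.45 at E13.5 and 6.80 at P0. Dlk1 had 3.29 and -5.17, and by the probes used Meg3 was at least 142-fold and Mest 64.02-fold higher. The 3 probes of Meg3 gave differences from 1.15 to 7.15 and the 3 of Mest from 2.41 to 6.00. The other members include RNA-binding and chromatin genes of the fetus. Igf2bp2 was 3.935-fold higher. Hmga2 had -3.79 in the transplant, at least 3.00-fold higher than the dim 8-week kidney but far from 4.15 at E13.5, Igf2bp1 was 3.88-fold lower, and Lin28b was not above background on either array. Of 13 cell cycle genes 12 were at least 2-fold higher (median 3.61), led by Plk1 (17.2-fold), Ccna2 (15.5-fold) and Cdk1 (15.3-fold). The 3 probes of Cdk1 gave differences from 0.0, which can be a bound, to 3.94. The proliferation marker Mki67 had 0.83 and -2.90 in the transplant and the 8-week kidney, beside 3.42 at E13.5 and 2.59 at P0. Aurkb had -5.93 in the transplant, below the lowest level measurable in the 8-week kidney, so it has no fold.

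**Figure D4:**
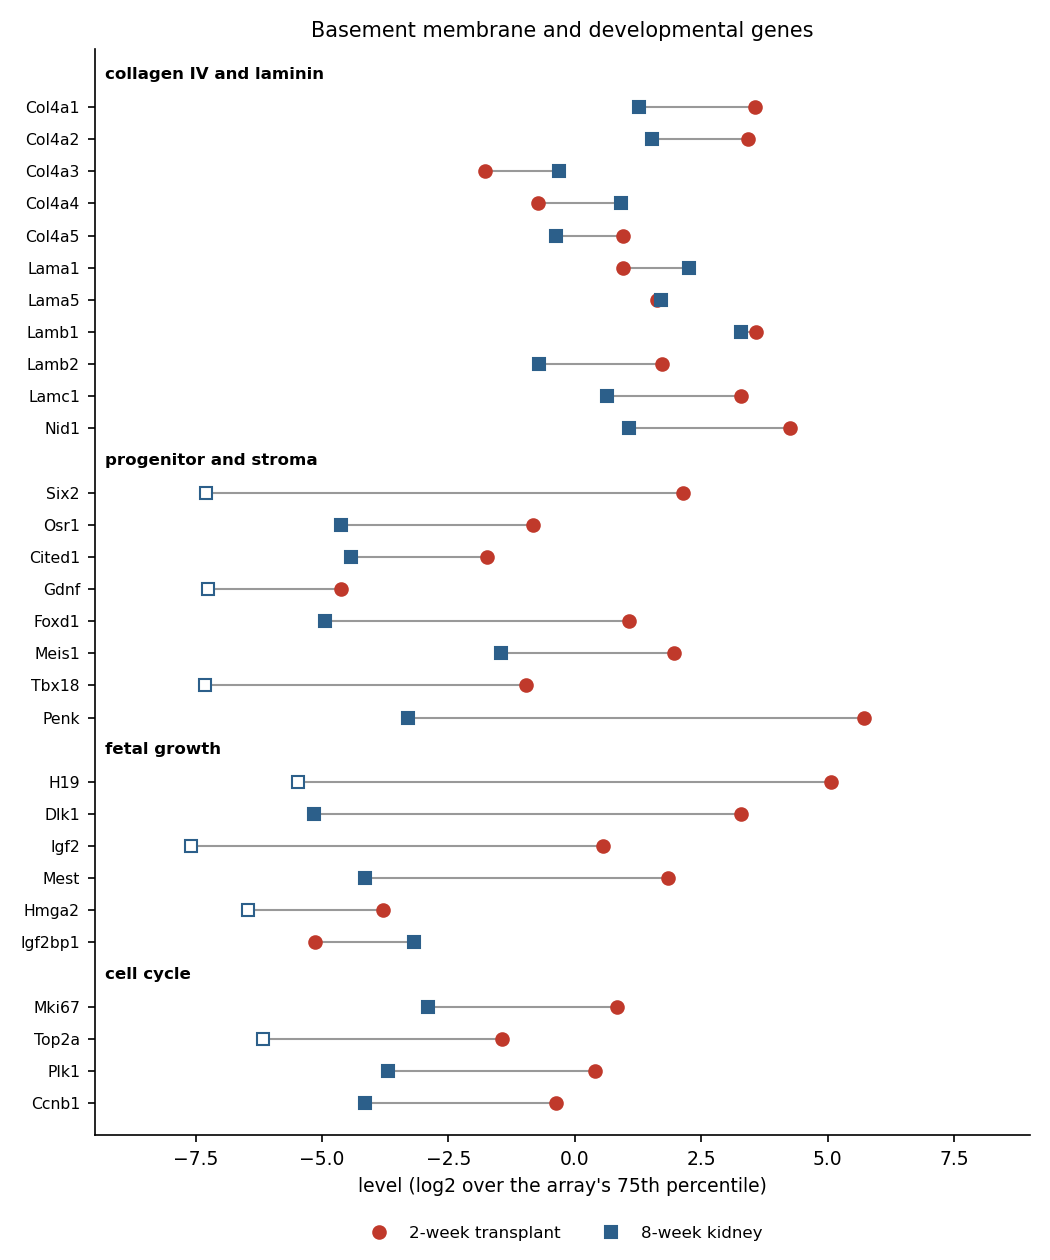
Level (log2 over the 75th percentile) in the 2-week transplant (red circles) and the 8-week kidney (blue squares) for basement membrane, progenitor, stroma, fetal growth and cell cycle genes, with open symbols not well above background. Col4a3 and Col4a4 lie lower in the transplant, Col4a1 and Col4a2 higher, and Six2 and H19 are open in the 8-week kidney.

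Connective tissue genes were higher throughout the list. All 14 matrix genes were at least 2-fold higher in the transplant (median 5.62). The proteoglycan lumican (Lum) had 6.22 in the transplant and was not above background in the 8-week kidney, at least 3113-fold higher, beside 1.42 at E13.5 and 0.30 at P0. Postn, a matrix protein of growing and scarring tissue, was at least 315-fold higher. The fibrillar collagens Col3a1 and Col1a1 had 6.36 and 6.08 in the transplant, against -0.76 and -0.74 in the 8-week kidney (139.5-fold and 113-fold), beside 4.56 and 4.28 at P0. Sparc differed least, at 4.24-fold. Summed over the list, the linear level was 1040 in the 2-week transplant, 790 in the 4-week transplant, 315 at P0, 257 at E13.5 and 72.9 in the 8-week kidney. The transplants were thus above all 3 kidneys.

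Contractile genes were also higher, in 9 of 10 cases, with 0 lower (median 3.07). Enteric smooth muscle actin (Actg2) was at least 148-fold, calponin (Cnn1) 64.6-fold and Acta2, of smooth muscle and myofibroblasts, 31.7-fold higher. The pericyte gene Rgs5 was 9.70-fold higher, and Cspg4 differed by -0.20. Of 5 lymphatic and mesothelial genes compared, 4 were higher (median 3.66), including the mesothelial Msln (18.8-fold) and the lymphatic Lyve1 (at least 13.8-fold). The lymphatic regulator Prox1 was not above background on either array.

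Genes of macrophages and their recruitment were higher in the transplant. Of 11 macrophage genes compared 10 were at least 2-fold higher (median 4.15). Lyz2, lysozyme, had 3.37 and -2.94 in the transplant and the 8-week kidney (79.4-fold), the mannose receptor Mrc1 1.97 and -3.27 (38.0-fold) and the macrophage surface gene Adgre1 2.30 and -2.28 (23.9-fold). Csf1r was 2.10-fold higher, and Itgam differed by 0.62 with probes of both signs. The summed linear level of the list was 116 in the transplant, 20.6 in the 8-week kidney, 13.4 at P0 and 9.88 at E13.5. Of 11 chemokines 9 were higher and 0 lower (median 2.91), with Cxcl13 and Ccl7 at least 43.0-fold and 42.9-fold, Ccl9 31.6-fold and Ccl2 23.2-fold. Cxcl12 differed by -0.11 by the probe used and by 2.36 by its other probe.

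Other leukocyte lists did not follow the macrophages evenly. Of 9 neutrophil genes 5 were higher and 1 lower (median 3.51), with S100a8 at 18.9-fold and the marker Ly6g 4.41-fold lower. Of 11 T and natural killer cell genes 5 were higher and 1 lower. Of these values 4 are bounds, and the median of 0.00 is itself a bound set to 0 and not a measured equality. The T cell receptor subunits Cd3e and Cd3d had -0.54 and -4.89 in the transplant, against 0.07 and -3.61 in the 8-week kidney, while Il7r was at least 9.69-fold higher. Of 7 B and plasma cell genes 5 were lower and 1 higher (median -1.69). The antibody joining chain Jchain was not above background in the transplant and had -0.62 in the 8-week kidney, at least 47.5-fold lower.

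Innate and antigen-presenting pathways were higher by smaller factors. Of 10 antigen presentation genes 8 were higher by 2-fold or more and 0 lower (median 1.89), with the peptide transporter Tap1 at 5.97-fold and the MHC class II gene H2-Aa at 5.75-fold, while B2m, the light chain of class I, differed by 0.70. Of 10 complement genes 7 were higher and 1 lower (median 2.33). Properdin (Cfp) was 21.7-fold, C1s1 15.7-fold and C3 12.98-fold higher, and factor B (Cfb) had 2.02 and 5.27 in the transplant and the 8-week kidney (9.54-fold lower). Of 10 interferon response genes 7 were higher and 0 lower (median 1.85), including Mx1 (at least 6.15-fold), Oasl2 (6.01-fold) and Isg15 (5.37-fold), while Ifit2 differed by 0.87.

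Some promoters of the interferon list carried the word of its response element, and 1 of them is shown. The word, GAAA, any 2 bases and GAAA again, was found for 4 of the 7 genes of the list with a window. It was found for 5.77% of genes at least 4-fold higher, 3.14% of those at least 4-fold lower and 3.89% of all genes compared. Counted by window, it was in 3.44% of all. Of the antigen presentation and chemokine lists, 1 of 7 genes each had it. For Isg15, a ubiquitin-like modifier, the 250 bases before the start lie at chr4:156200819-156201068 on the minus strand (GRCm38.p6, RefSeq), and their 3 overlapping matches, in capitals, begin 78 bases before the start.
Isg15: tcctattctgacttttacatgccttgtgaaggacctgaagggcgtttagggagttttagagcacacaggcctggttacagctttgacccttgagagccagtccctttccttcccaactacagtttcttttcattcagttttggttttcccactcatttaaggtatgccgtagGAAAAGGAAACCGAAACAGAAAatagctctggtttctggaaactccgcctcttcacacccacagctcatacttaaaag

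Injury and hypoxia genes differed in both directions. Of 10 injury genes 7 were higher by 2-fold or more and 2 lower (median 3.09). Besides Timp1, vimentin (Vim) was 19.1-fold and Anxa1 17.2-fold higher, and Lcn2 differed by 3.91 on the log2 scale. Several of these, Timp1, Vim and Anxa1 among them, are also expressed by stroma and leukocytes. Havcr1, which encodes the tubular injury marker KIM-1, went the other way, with -5.34 in the transplant and 0.83 in the 8-week kidney (72.4-fold lower), beside -5.46 at P0. Of 10 hypoxia and glycolysis genes 2 were higher and 5 lower (median -0.59), with Hk2 at least 18.5-fold higher and Car9 27.8-fold lower.

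The other-tissue marker lists were led by fat. Of 10 white and general adipocyte genes 9 were higher by 2-fold or more and 0 lower (median 6.56, or 8.64 for the 4-week transplant). Adipsin (Cfd) had 6.27 in the transplant and adiponectin (Adipoq) 3.89. Neither was above background in the 8-week, P0 or E13.5 kidney, and they were at least 3213-fold and 619-fold higher than in the 8-week kidney. Lpl, which kidney also expresses, differed by -0.03 by the probe used and by 0.81 by its other probe. Of 7 brown adipocyte genes 5 were higher and 1 lower (median 4.75). Of these values 4 are bounds, given as minimum differences of genes dim in the 8-week kidney. Over the 3 genes above background on both arrays the median was -0.01. Ucp1, the uncoupling protein, had 4.20 in the transplant and was not above background in any of the kidneys, at least 763-fold higher. Cox8b and Cidea were at least 1608-fold and 1517-fold higher, and Ppargc1a, which tubules also express, 3.99-fold lower. The summed level of the white list was 233 in the transplant and 26.4 in the 8-week kidney, and that of the brown list 115 and 11.2. The part of fat in differences of genes it shares with the kidney, such as Pck1, Pparg and Fabp4, was not tested.

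Some markers of glia, neurons, bone and blood were higher in the transplant as well. Of 10 glial genes 7 were higher and 1 lower (median 2.26). Gfap, the astrocyte filament that other glia share, had 2.05 in the transplant, -2.18 in the 4-week transplant and was not above background in the 3 kidneys (at least 173-fold). The 3 probes of Gfap gave differences from 2.71 to 7.43. The summed level of the list was 34.5 in the transplant and 82.6 in the 8-week kidney, where Aldh1l1, which the tubule also expresses, had 6.16. S100b was above background on all 5 arrays. Of 9 neuronal genes 5 were higher (median 2.35), but 7 values are bounds, and Snap25 differed by 0.73. Of 11 bone and cartilage genes 8 were higher and 1 lower (median 2.34). Ibsp (bone sialoprotein) was at least 60.9-fold, osteocalcin (Bglap) 53.7-fold and Comp 34.9-fold higher, while Alpl, which the proximal tubule also expresses, was 4.80-fold lower. The summed level of this list was 10.3 in the transplant and 19.8 in the 8-week kidney, where Alpl had 4.30. Bglap had 0.76 in the 2-week transplant and -3.42 in the 4-week transplant. Of 4 erythroid genes compared 3 were higher, with Alas2 at 12.5-fold and Hba-a1, which has a near-identical copy, at 11.1-fold, and the embryonic globins were not above background on either array.

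Other marker lists showed little or no common difference. For skeletal muscle 3 of 6 genes were higher and 1 lower (median 0.97). Acta1 was 22.55-fold and Actn3 7.165-fold higher, and Ckm was at least 4.575-fold lower. Myh1, Myh2 and Myh4 were not above background on either array. The choroid plexus and leptomeninges list had 5 of 10 higher and 3 lower (median 1.27), with Ecrg4 169.6-fold and Ptgds 35.5-fold higher, and the transcription factor Otx2 9.78-fold lower. The urothelium, adrenal cortex, liver and pancreas lists had medians of -0.19, -0.28, -0.52 and -0.39, close to 0. Without the percentile shift the urothelium and liver medians were 0.36 and 0.03, and in the authors' gene table the pancreas median was 0.27. Alb was at least 16.1-fold lower in the transplant, and Cyp11a1 and Cyp11b1, which make steroids, were not above background on either array. In the 4-week transplant, by contrast, the urothelium and adrenal cortex medians were 5.89 and 9.06 against the same 8-week array.

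**Figure D5:**
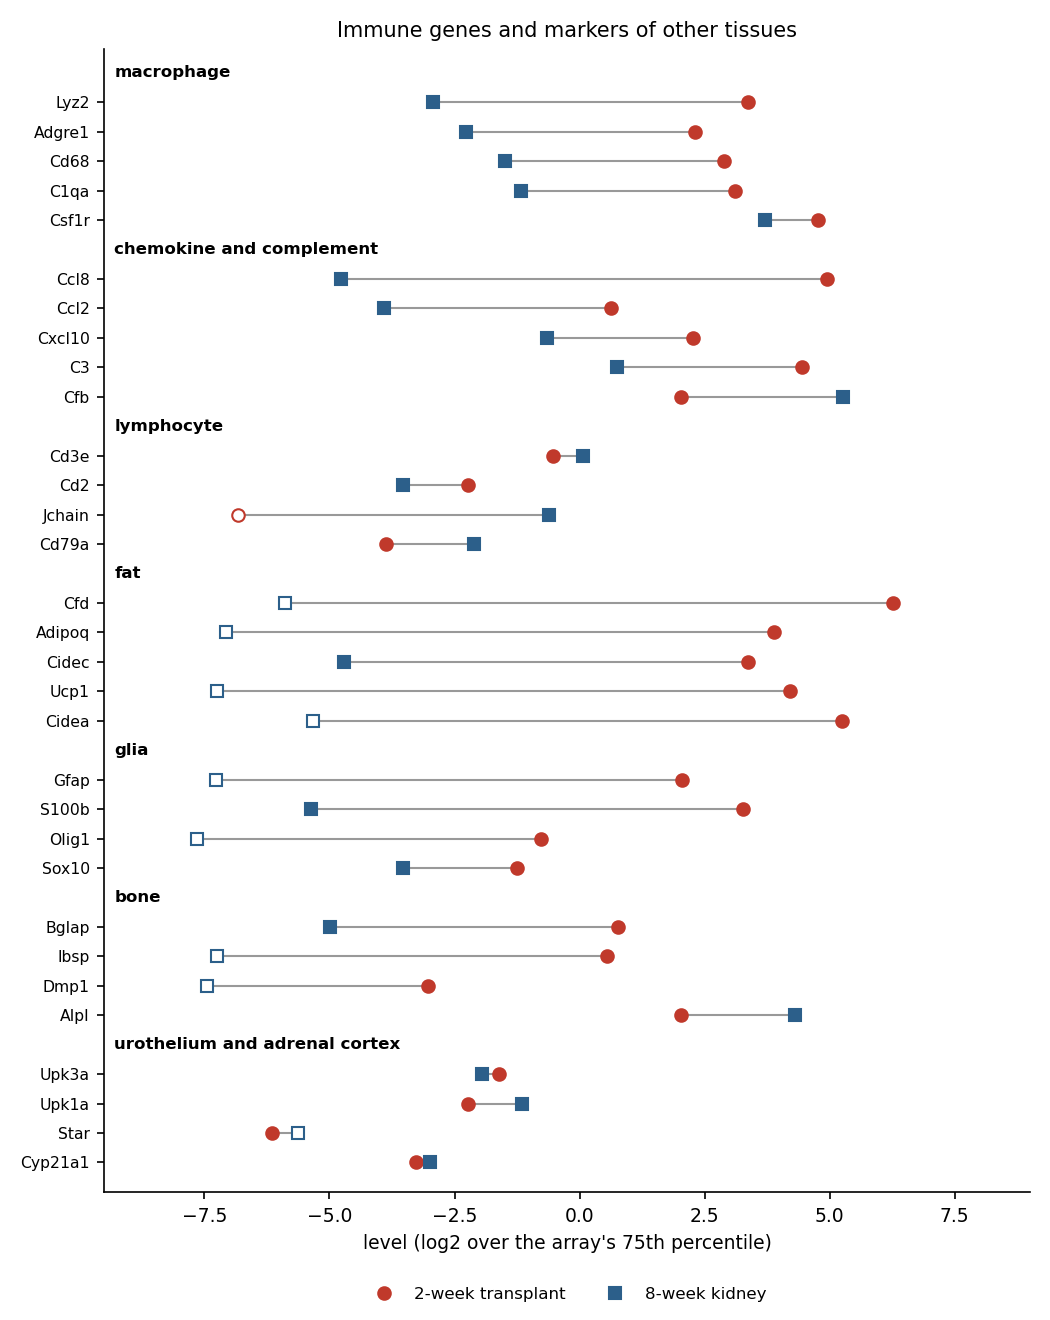
Level (log2 over the 75th percentile) in the 2-week transplant (red circles) and the 8-week kidney (blue squares) for immune genes and markers of other tissues, with open symbols not well above background. Fat genes are open or low in the 8-week kidney, Jchain is open in the transplant, and the urothelial and adrenal genes shown lie close together.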

How the data were processed

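Each of the 5 RNAs was labelled with Cy3 and measured on 1 one-colour Agilent mouse array. Per the file headers, the authors' deposited intensity values came from Agilent Feature Extraction 10.7.3.1, with background subtraction and detrending within the array and no scaling between arrays. The authors' deposited log2 gene table is centred on each gene's median over the arrays. A 75th percentile shift is named in its title, but 99.6% of 30170 rows matched the scanner values within 0.01 without one and 18.2% with one. The flags for background and outliers are the scanner software's own.

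For the values given here, the intensity was divided by its 75th percentile over the 43020 non-control spots of that array and taken to log2. Outlier spots (447) were dropped and replicate spots averaged. Of 39414 probes, 31781 were named by gene ID, 2026 by the authors' symbol and 19 by accession, and 5588 stayed unnamed. The probe with the highest mean over the 5 arrays stands for a gene. A fold is that of this probe, and other probes of the gene can give smaller differences. Of 5203 genes with several probes, 1112 had probes of opposite sign. A gene dim on one array enters at its own value or at that array's lowest value above background, whichever is higher (-6.19 for the 2-week transplant, -5.38 for the 8-week kidney), as "at least", and at 0 where this would turn its direction. With 1 array a group the number of arrays limits the precision and no test was run. Named are the 15 largest differences each way above background on both arrays, leaving out names of gene models and genes whose probes differ in sign. From each of 49 lists (499 members matched, 2 unmatched), the largest, the opposite and the smallest differences are named. A few members were named for their known role after their values were seen. Members and lists were chosen with earlier results of these data known. Alternatives covered background correction (limma 3.58.1 in R 4.3.3), scaling, probe rule, filter, threshold and slide. The rest was computed in Python 3.11.15 with pandas 2.3.3. Some list members are counted but not reported here by name.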

Additional observations from a re-analysis of the deposited data

Results flagged for a closer look

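For 6 list members the 2-week and the 4-week transplant lay on opposite sides of the 8-week kidney by more than 2-fold. Both comparisons use the same 8-week array, each has 1 array a group, and the difference between them was not tested. Enpp2, which makes lysophosphatidic acid, differed by -3.10 in the 2-week transplant and by 1.39 in the 4-week transplant. Its levels were 2.38 and 6.88, against 5.49 in the 8-week kidney. The steroid enzyme gene Hsd3b1 differed by -1.34 as a bound at 2 weeks and by 11.02 at 4 weeks. It was not above background in the 2-week transplant and had 6.17 in the 4-week transplant, against -4.85 in the 8-week kidney. The urothelial genes Upk1a and Upk2 differed by -1.09 and -3.00 at 2 weeks and by 5.75 and 5.29 at 4 weeks, the value of Upk2 at 2 weeks being a bound. The epithelial gene Sprr1a differed by -1.19 and 5.97, with levels of -3.16 and 4.00 in the 2-week and the 4-week transplant and -1.97 in the 8-week kidney. Ins2, an insulin gene, differed by -1.49 and 1.34, with levels of -3.12, -0.29 and -1.63 in the same order.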

How the results depend on the processing

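The count of genes at least 4-fold higher, 2165, was 1330 with normexp at an offset of 50 and 1405 among genes above background on both arrays. It was 3622 in the authors' table, where dim genes were not entered as bounds. At thresholds of 2-fold and 8-fold, 3976 and 1124 genes were higher and 4128 and 824 lower. The lower count, 1589, stayed within 1.5 times under every alternative scaling, background, probe and filter setting. Of the genes at least 4-fold apart, 57.7% were higher in the setting used, 73.3% without a shift, 43.1% with a median shift, 74.9% in the authors' table, 51.4% with normexp and 51.0% above background on both arrays. The brown adipocyte median of 4.75 became -0.01 over the 3 members above background on both arrays. That setting leaves out the other 4, which were dim in the 8-week kidney and whose differences are minimum values. Synpo, at 1.85, became -0.05 as a mean over its probes. No paired analysis was possible because each group has 1 array. Slide and group cannot be told apart, and the 4-week transplant, on the same slide as the 8-week kidney, had 2150 genes at least 4-fold above it and 1428 below. Low signal limits genes near background, whose folds are bounds or understate the difference.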

Other observations

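Gene families grouped by symbol add to the nephron picture, with the all-gene shares of 21.7% at least 2-fold higher and 22.5% lower as background. Of 13 UDP-glycosyltransferase genes compared, 12 were lower and 0 higher in the transplant than in the 8-week kidney (median -6.49). Of 33 organic ion transporters 23 were lower and 4 higher (median -3.57), and of 57 cytochrome P450 genes 38 and 3 (median -2.10). Slc7a13, an amino acid carrier of the late proximal tubule, was not above background in the transplant and had 5.18 in the 8-week kidney, at least 2639-fold lower. Slc36a2, a carrier of small amino acids, went the other way, with 1.78 in the transplant and no level above background in the 8-week kidney, at least 143-fold higher. Of 47 genes named as NADH dehydrogenase subunits or assembly factors 39 were lower and 1 higher (median -1.39). The proton pump family had 14 of 23 genes lower and 0 higher (median -1.13).

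Some families of matrix and defence had more members higher than lower. Laminins (5 of 11 higher, 2 lower) and cathepsins (5 of 14 higher, 2 lower) had medians of 0.32 and 0.39, within the shifts between scalings, and of 31 MHC genes 13 were higher and 5 lower (median 0.61). Of 41 collagens 31 were higher and 3 lower (median 2.38), and of 35 matrix metalloproteinase and ADAMTS genes 24 and 3 (median 2.45). Mmp2, a gelatinase, had 3.20 in the transplant and -3.69 in the 8-week kidney (119-fold). Of 30 Fc receptor and C-type lectin genes 18 were higher and 2 lower (median 2.52). Aldh1a3, which makes retinoic acid, had 3.93 in the transplant and was not above background in the 8-week kidney, at least 635-fold higher. Of 36 Hox genes 11 were higher and 1 lower (median 0.43, within those shifts). At least 4-fold higher were 2 of the 36, a smaller share than the 11.8% of all genes compared. Hoxa11, needed for kidney development, was among them, at 31.9-fold. Apolipoproteins were split, with Apom 123-fold lower and Apoe, which macrophages make, 9.13-fold higher. The 77 cytosolic ribosomal protein genes had a median of 0.37, which is within the shifts between scalings.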
